A study of Mus musculus with 7 samples.

Results

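The cells described here were sorted from solid mammary tumours of mice as negative for E-cadherin (Ecad), the adhesion protein that is made from Cdh1 and holds epithelial cells together. They are called TEneg. A well was kept as a cell where it held at least 500 transcripts, spike-in RNA left out, which gave 69 TEneg cells among 381 cells of the whole series. A single well with over 20000 transcripts is described apart at the end, so that every TEneg summary rests on the other 68 cells. The study used the PyMT mouse, which carries the polyoma middle T transgene, a viral oncogene that gives mammary tumours, and all groups share it. Ecad-positive cells of the solid tumours (TEpos, 71 cells) and Ecad-negative cells sorted as circulating tumour cells (BEneg, 60 cells) came from the same 4 sequencing libraries. Ecad-positive cells sorted as circulating tumour cells (BEpos, 20 cells) came from library 1 alone. These are names of the sort. By the counts defined below, all 60 BEneg and all 20 BEpos cells carried leukocyte genes, and 18 BEpos cells carried lymphocyte genes. The median share of luminal genes was 0.117% in BEpos, against 5.04% in TEpos. The labels give no age, promoter, tumour stage or treatment for any group, and they do not say how many mice stand behind a library. The library is therefore the replicate (n = 4), and p-values measure only the spread between libraries, which may be technical.

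A mammary tumour holds several kinds of cell. Luminal cells line the ducts and make milk proteins. Myoepithelial cells, also called basal cells, lie around them, contract and carry basal keratins. Endothelial cells line blood vessels, pericytes wrap small vessels, fibroblasts make collagen, and leukocytes enter from blood. In an epithelial-to-mesenchymal transition (EMT), epithelial cells lower Cdh1 and raise genes such as Vim, and genes that are used as mesenchymal markers are also made by several of the other cell types, so a gate that keeps all cells without surface Ecad can hold more than 1 type. The account below asks what each TEneg cell held, from lists of marker genes.

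The assay was CEL-seq, in which the 3' ends of transcripts are read and a barcode marks the cell, with a short random one for the molecule. The 4 libraries held 24 TEneg wells each, and 19, 22, 14 and 14 of these wells were kept. The smallest cell kept held 514 transcripts and the largest well left out held 493. Cells had a median of 1582 transcripts in TEneg, 2064 in TEpos, 819 in BEneg and 3803 in BEpos. Summed over cells, the TEneg libraries held 37246, 48665, 18207 and 17189 transcripts. Of 96 cell barcodes, 72 were used in all 4 libraries and 24 in library 1 alone. Levels below are transcripts per 10000 of the cell or of the summed cells, and they count molecules, not molecules per length.

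Cdh1 RNA, which bears on the gate itself, overlapped between the populations. It stood at 5.12, 3.51, 2.20 and 2.92 per 10000 in TEneg libraries 1 to 4, against 3.37, 3.64, 10.7 and 5.86 in TEpos and 2.04, 3.96, 5.91 and 3.59 in BEneg. TEneg was above TEpos in library 1 and below it in the other libraries. The log2 fold change of TEneg over TEpos was -0.28 ± 0.36 (SE; edgeR quasi-likelihood test, adjusted p = 0.711), and it turned positive, 0.13, without library 3. A Cdh1 transcript was seen in 30 of 68 TEneg cells (44.1%), 43 of 71 TEpos cells (60.6%) and 20 of 60 BEneg cells (33.3%). With every cell thinned at random to 500 transcripts these shares were 15.4%, 24.7% and 18.8%.

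All 68 TEneg cells held luminal transcripts, and most also held transcripts of another cell type. Transcripts of the luminal list were also found in all 60 BEneg and all 20 BEpos cells, so their presence alone does not set TEneg apart. Of the 566 in BEneg, 240 came from the gene Lcn2, and whether they were made in luminal cells was not tested. A cell was taken to carry a list where at least 3 transcripts from at least 2 of its genes were found. This is a range on a count and not a cell type, and near the limit a cell moves in or out with 1 transcript. The luminal list was carried by all 68 TEneg cells, 53 of 60 BEneg cells (88.3%) and 15 of 20 BEpos cells (75%). After thinning these shares were 99.3%, 62.95% and 5.5%. Without thinning, 34 TEneg cells carried the endothelial list, 26 the contractile list and 27 the stromal list. The basal keratin list was carried by 13 TEneg cells and the leukocyte list by 15. Leaving aside the luminal list, the endothelial and contractile lists divided the cells into 23 with the endothelial list alone, 15 with the contractile list alone, 11 with both and 19 with neither. These groups differed in depth, with median totals of 1263, 1995, 2804 and 961 transcripts in that order.

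**Figure D1:**
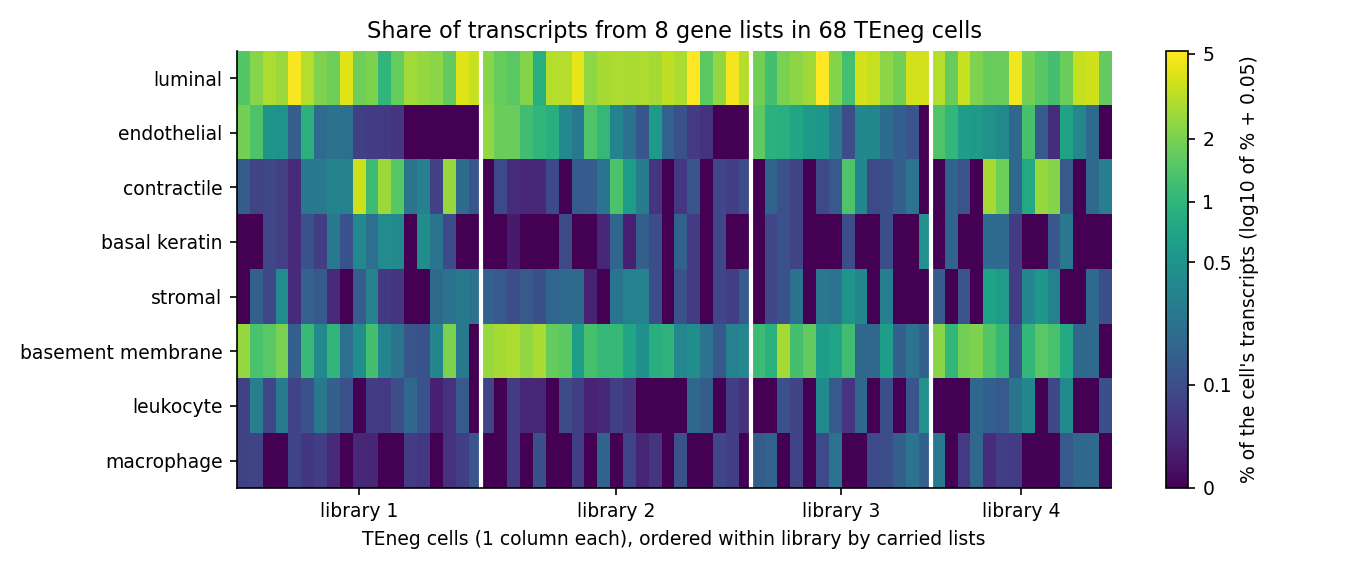
Share of each cell's transcripts (colour, log10 of percent + 0.05, tick labels in percent) that fell in 8 marker gene lists, for 68 TEneg cells in 4 libraries. The luminal row is lit in every column (0.907% to 5.17%), and the cells with the highest endothelial shares are not those with the highest contractile shares.

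Luminal genes were the most even part of the mixture. They made up 0.907% to 5.17% of the transcripts of a TEneg cell with a median of 2.36%, against a median of 5.04% in TEpos cells (1.45% to 10.9%) and 0.736% in BEneg cells (0.0662% to 2.39%). In the library sums the share was 2.48 ± 0.164% in TEneg, 5.23 ± 0.772% in TEpos and 0.772 ± 0.245% in BEneg (SD, n = 4 each). TEneg lay below TEpos and above BEneg in 4 of 4 libraries, for which the exact two-sided sign-flip test gives p = 0.13, the smallest that 4 pairs allow. Within its own library, a TEneg cell exceeded the highest BEneg cell in 18 of 19, 14 of 21, 12 of 14 and 6 of 14 cases. It fell below the lowest TEpos cell in 8, 1, 9 and 9 cases.

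The luminal transcripts came mainly from 4 genes: Lcn2, which encodes the iron-siderophore binding protein lipocalin 2 (816 transcripts), Csn3 for kappa-casein (709), Wfdc18 for a secreted whey acidic protein-like inhibitor (653) and Trf for transferrin (473). Lcn2 and Csn3 were each present in all 68 TEneg cells, Trf in 66 and Wfdc18 in 64. The genes of luminal keratins and junctions were sparser, with Krt18 in 43 cells, Epcam in 41, Krt8 in 35 and Cldn3 in 29.

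Cells that carried the endothelial list had about the same luminal share as all other TEneg cells pooled. Their luminal share had a median of 2.31% (n = 34), against 2.43% in the other TEneg cells (n = 34). Carriers of the contractile list had a median of 2.12% (n = 26), against 2.69% in the cells without it (n = 42). By group, the median was 2.23% with the endothelial list alone, 1.83% with the contractile list alone, 2.80% with both and 3.28% with neither. The cells without the endothelial list thus pool the lowest and the highest of these medians. These differences between groups were not tested. The relative make-up of the 4 main luminal genes was looked at after the values had been seen. In cells with the endothelial list alone, Csn3, Wfdc18, Lcn2 and Trf gave 28.6%, 29.5%, 28.6% and 13.4% of the 837 transcripts of the 4 genes, against 28.7%, 30.3%, 27.1% and 13.9% of 8623 in TEpos cells. The other TEneg groups lay farther from TEpos. Cells with the contractile list alone had 25.6% from Wfdc18 and 20.6% from Trf, cells with both lists 18.9% and 22%, and cells with neither 23.7% and 16.8%, with 33.6% from Lcn2. BEneg cells had another make-up, with 48% from Lcn2 and 14.4% from Wfdc18 among 500 transcripts. Over single libraries the spread was wider, and Wfdc18 ran from 19.6% to 32.9% in the 4 libraries of cells with the endothelial list alone and from 22.4% to 40.6% in those of TEpos. Trf ran from 5.22% to 17.9% in the libraries of cells with the endothelial list alone. In the 27 TEneg wells left out for depth, a median of 5 luminal transcripts made up 2.31% of the well. Whether the luminal transcripts of endothelial carriers were made in those cells was not tested.

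**Figure D2:**
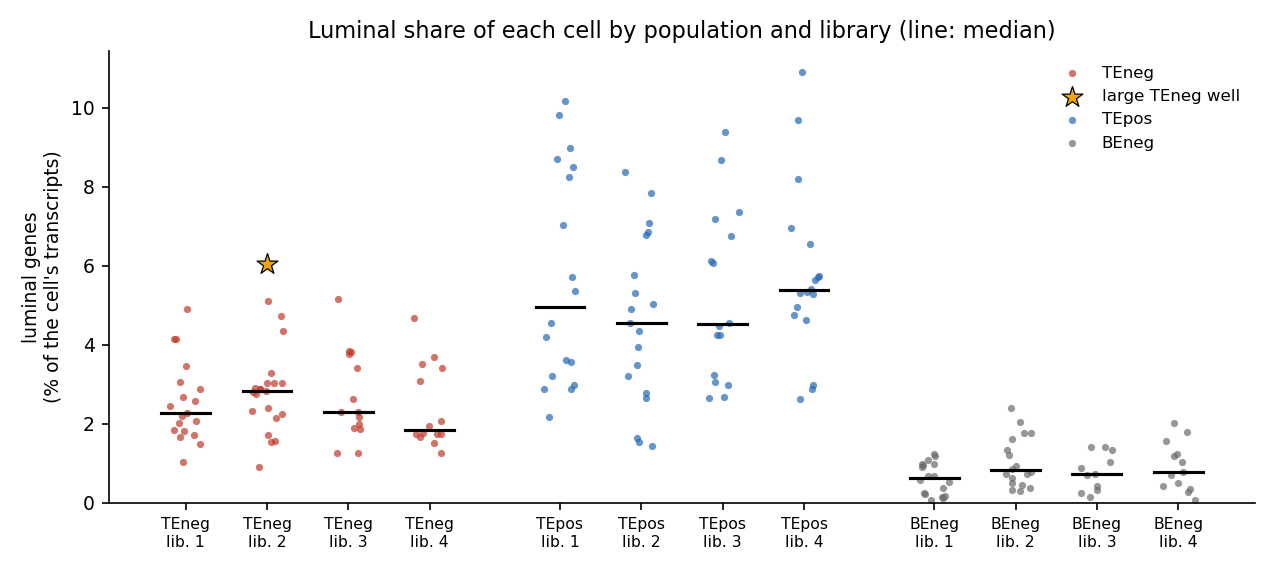
Luminal transcripts as a percentage of each cell's transcripts, by population and library (points: cells; line: median; star: the large TEneg well at 6.05%). TEneg medians lie between those of TEpos and BEneg in each of the 4 libraries.

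The endothelial list was carried by 7 of 19, 13 of 21, 7 of 14 and 7 of 14 TEneg cells in libraries 1 to 4, in all 34 of 68 (50%, exact Clopper-Pearson 95% interval 37.6% to 62.4%, which covers counting error only). It was carried by 8 of 71 TEpos cells (11.3%, 4.99% to 21%) and 3 of 60 BEneg cells (5%, 1.04% to 13.9%). Thinned to 500 transcripts a cell, the shares were 30.9% in TEneg, 0.451% in TEpos and 0.0833% in BEneg. TEneg was higher in 4 of 4 libraries against either population (exact sign-flip p = 0.13 each, the smallest possible). Of the 34 carriers, 3 held exactly 3 transcripts, and 9 further TEneg cells held 2.

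The members of the list came from several steps of vessel biology. Plvap, which forms the diaphragms of small vessel pores, gave 72 transcripts in 23 TEneg cells, against 8 in 6 TEpos cells and 4 in BEneg. Cdh5, the vascular endothelial cadherin of endothelial junctions, gave 62 in 23 TEneg cells, against 3 in TEpos and 4 in BEneg. Its level was 2.43, 8.51, 5.51 and 1.17 per 10000 in TEneg libraries 1 to 4, so that library 2 stood highest and library 4 lowest. Sox18, a transcription factor of vessel development, gave 38 transcripts in 16 TEneg cells, and Mmrn2, a matrix protein of vessels, 37 in 18. The receptor genes Kdr, Flt1, Tie1 and Tek gave 12, 16, 13 and 13 transcripts in TEneg and no more than 2 each in TEpos. Sparcl1, a matrix-associated protein of the Sparc family, was the most abundant with 155 transcripts in 41 TEneg cells, but it was also present in 31 TEpos cells. The endothelial list was represented by 22 genes in TEneg, and Pecam1 was not analysed here.

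Some wells held a broad endothelial set. The well numbered 7 in library 2 held 29 endothelial transcripts from 16 genes among 1208 (2.40%), no contractile transcript and 27 luminal transcripts. The well numbered 19 in library 2 held 87 endothelial transcripts from 18 genes, of which Plvap gave 19, Cd93 9 and Cdh5 8, together with 2 contractile and 77 luminal transcripts. Genes outside the list went with it. By the ratio of mean levels in carriers over the other TEneg cells, the leading ones were Gpihbp1 (9.30 against 0.630 per 10000), which holds lipoprotein lipase at the capillary wall, Gng11 (9.71 against 0.700), a G protein gamma subunit, and Mcam (7.94 against 0.589), an adhesion molecule of vessels. Fscn1, Id3, Ostf1, Hspg2 and Bmpr2 followed with ratios of 6.89 to 9.17. Carriers were chosen from the same cells, so these ratios are a description with no test.

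Contractile transcripts marked a second set of cells, unevenly over libraries. The list was carried by 13 of 19, 5 of 21, 2 of 14 and 6 of 14 TEneg cells in libraries 1 to 4, in all 26 of 68 (38.2%, 26.7% to 50.8%), against 13 of 71 TEpos cells (18.3%, 10.1% to 29.3%) and 1 of 60 BEneg cells (1.67%, 0.0422% to 8.94%). Thinned to 500 transcripts the shares were 20.2% in TEneg, 3.04% in TEpos and 0.0167% in BEneg. TEneg exceeded TEpos in 4 of 4 libraries (exact sign-flip p = 0.13). Library 1 alone gave 13 of the 26 carriers, and without it 13 were left. Of the 26 carriers, 4 held exactly 3 transcripts, and 13 further TEneg cells held 2.

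Acta2, the smooth muscle actin of myoepithelial cells, pericytes and myofibroblasts, gave 258 transcripts in 23 TEneg cells, against 26 in 16 TEpos cells. Tagln, an actin-binding protein of smooth muscle, gave 110 in 20 TEneg cells, against 20 in 9 TEpos cells. Mylk, the kinase of the myosin light chain, gave 80 in 24 TEneg cells, against 3 in 3 TEpos cells. Oxtr, the oxytocin receptor that drives myoepithelial contraction at milk release, gave 27 in 17 TEneg cells, against 6 in 6 TEpos cells. Each of these 4 genes was thus seen in 17 to 24 TEneg cells, and whether these were the same cells was not tested. The well numbered 21 in library 1 alone held 103 contractile transcripts from 10 genes among 2841 (3.63%), with Acta2 at 36, Tagln at 29 and Tpm2 at 15, beside 2 endothelial and 52 luminal transcripts.

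Basal keratin genes overlapped the contractile cells. Of the 13 TEneg cells that carried the basal keratin list (6, 3, 1 and 3 in libraries 1 to 4), 11 also carried the contractile list, which is 84.6% of basal keratin carriers and 42.3% of contractile carriers. Over all 68 TEneg cells, 38.2% carried the contractile list and 19.1% the basal keratin list. In TEpos 1 of 71 cells carried the basal keratin list and in BEneg 0 of 60 (upper bound 5.96%). Krt14, a keratin of basal epithelium, gave 37 transcripts in 16 TEneg cells, against 9 in 6 TEpos cells, and 26 of the 37 lay in library 1. Krt5, its partner keratin, gave 25 in 12 TEneg cells, against 1 in TEpos, and Col17a1, a collagen of the junction between basal cells and their matrix, gave 14 in 10 TEneg cells, against 0 in TEpos and in BEneg. Thinning to 500 transcripts left an average of 1.89 basal keratin carriers in TEneg, so the list is near the detection limit in most cells. Outside the contractile list, Gas1 (a growth arrest protein at the cell surface) was found in 13 of 26 contractile carriers and in 0 of the other 42 TEneg cells. Il17b, Socs3, Lhfp, Krt5, Cxcl14, Col9a3 and Sfn followed, with ratios of 10.4 to 44.5.

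Some cells carried both the endothelial and the contractile list. The 11 cells with both lists were 32.4% of the endothelial carriers, whereas 38.2% of all 68 TEneg cells carried the contractile list. They were 42.3% of the contractile carriers, whereas 50% of all 68 cells carried the endothelial list. Without thinning the overlap was thus near the share over all cells, and the cells with both lists were the deepest group. After thinning to 500 transcripts an average of 0.73 cells carried both. Then 21.04 (30.9% of 68) carried the endothelial list and 13.71 (20.2% of 68) the contractile list. The thinned overlap was thus a smaller part of the endothelial carriers than the 20.2% of all cells that carried the contractile list. Whether the lists avoid each other was not tested. By library, cells with the endothelial list alone numbered 5, 8, 6 and 4, cells with the contractile list alone 11, 0, 1 and 3, cells with both 2, 5, 1 and 3, and cells with neither 1, 8, 6 and 4. Library 2 thus held no cell with the contractile list alone. Krt5 was absent from the 23 cells with the endothelial list alone, and Plvap and Cdh5, which belong to the endothelial list and so helped to form the groups, were absent from the 15 cells with the contractile list alone.

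**Figure D3:**
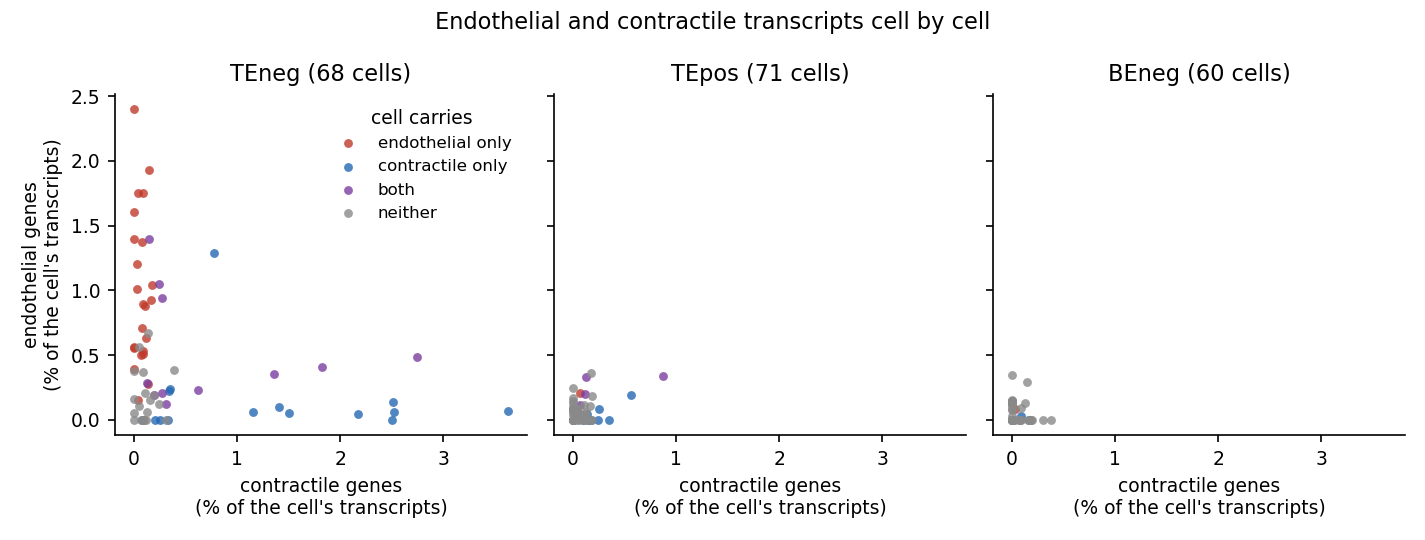
Endothelial against contractile transcripts, each as a percentage of a cell's transcripts, in TEneg, TEpos and BEneg cells on the same axes (points: cells, coloured by the lists they carry). TEneg cells extend along both axes, to 2.40% endothelial and 3.63% contractile, whereas the highest TEpos cells reach 0.359% and 0.872%.

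Stromal and pericyte content was weaker. The stromal list was carried by 8, 9, 5 and 5 TEneg cells in libraries 1 to 4 (39.7% of 68), against 5, 9, 1 and 0 TEpos cells (21.1% of 71) and 0 of 60 BEneg cells. In library 2 the TEpos share, 47.4%, was above the TEneg share, 42.9%. The exact sign-flip p for TEneg against TEpos was 0.25, and after thinning 6.44% of TEneg cells and 0.761% of TEpos cells remained. The stromal share of the library sums was 0.201 ± 0.0843% in TEneg and 0.0599 ± 0.0123% in TEpos (SD, n = 4 each; higher in TEneg in 4 of 4 libraries, exact p = 0.13). Serpinf1, a secreted inhibitor of vessel growth, gave 52 transcripts in 17 TEneg cells, and 26 of them lay in library 4. The fibrillar collagen genes Col1a2, Col3a1 and Col1a1 gave 50, 35 and 22 transcripts in 27, 27 and 15 TEneg cells, against 35, 22 and 28 in 24, 15 and 18 TEpos cells. These are raw counts out of 121308 transcripts in TEneg and 189080 in TEpos, so they do not compare levels. Lum and Dpt, further fibroblast genes, gave 2 transcripts each in TEneg.

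Of the 27 stromal carriers, 16 (59.3%) also carried the contractile list and 16 the endothelial list. Over all 68 TEneg cells these lists were carried by 38.2% and 50%. The 4 wells with the highest stromal share were contractile wells of libraries 4 and 3, led by the well numbered 20 in library 4 with 17 stromal transcripts, of which Col1a2 gave 9 and Serpinf1 6, beside 68 contractile transcripts. The genes outside the list that were highest in stromal carriers relative to other TEneg cells were Kitl, 1500015O10Rik, Slc25a39, Psmd7, Tpm2, Mylk, Rexo2 and Acta2, and 3 of these belong to the contractile list. The pericyte list was carried by 4 TEneg cells. Its transcripts were mostly Mcam (53 of 66), all 4 carriers also carried the endothelial list and none the contractile list, and Rgs5, Cspg4 and Abcc9 gave 1 transcript each.

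Immune transcripts were sparse in TEneg relative to BEneg. The leukocyte list was carried by 15 of 68 TEneg cells (22.1%), 20 of 71 TEpos cells (28.2%) and 60 of 60 BEneg cells, and after thinning by 3.16%, 1.44% and 96.8%. Library 1 held 14 of the 20 TEpos carriers, and without it the direction turned, with 10 of 49 TEneg cells (20.4%) and 6 of 53 TEpos cells (11.3%), an alternative chosen after the data had been seen. TEneg had the higher share of carriers in 3 of 4 libraries. It made up 0.101 ± 0.0382% of the transcripts of TEneg sums, 0.0851 ± 0.0498% of TEpos sums and 1.92 ± 0.459% of BEneg sums (SD, n = 4 each; TEneg against TEpos exact sign-flip p = 0.5). Ptprc, the general leukocyte antigen CD45, was listed at 0 in TEneg and TEpos and had 1 transcript in BEneg, so it is too sparse here to mark leukocytes. The highest leukocyte count in a TEneg cell was 9 transcripts from 4 genes, in the well numbered 24 of library 3. It was also the cell with the highest luminal share (116 transcripts, 5.17%), and it carried the endothelial and stromal lists.

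The neutrophil list was carried by 70.6% of TEneg cells and 70.4% of TEpos cells, against 95% of BEneg cells. After thinning the shares were 22.03% in TEneg, 14.97% in TEpos and 79.7% in BEneg. S100a9, a calcium-binding alarmin of neutrophils, averaged 13.8 ± 9.59 per 10000 in TEneg, against 349 ± 123 in BEneg (SD, n = 4 each). The macrophage list was carried by 5 TEneg, 2 TEpos and 34 BEneg cells. It made up 0.0675 ± 0.0399% of TEneg sums, 0.0346 ± 0.0105% of TEpos sums and 1.04 ± 0.309% of BEneg sums (SD, n = 4 each; TEneg above TEpos in 4 of 4 libraries, exact p = 0.13). Lyz2, a lysozyme of macrophages and neutrophils whose reads may be shared with its close copy Lyz1, was the member called between the tumour gates. It stood at 1.35, 0.619, 4.45 and 1.75 per 10000 in TEneg, against 0.336, 0, 0.332 and 0.731 in TEpos (2.59 ± 0.64 SE on the log2 scale, adjusted p = 0.00458 by edgeR), with groups that overlapped and a call that was lost without library 3 (adjusted p = 0.0693) or with the large well included (adjusted p = 0.0761). Lyz1 stood at 4.31, 1.86, 7.22 and 5.85 per 10000 in TEneg, against 2.02, 1.12, 1.99 and 2.19 in TEpos, with groups that overlapped (1.42 ± 0.40 SE, adjusted p = 0.0112 by edgeR). Of the 5 macrophage carriers in TEneg, 3 held exactly 3 macrophage transcripts. All 5 also carried the endothelial list, as did 50% of all 68 TEneg cells, and 4 carried the stromal and 3 the contractile list. The lymphocyte list was carried by 1 TEneg, 1 TEpos and 3 BEneg cells. The list of MHC class II genes, which antigen-presenting cells use, was carried by 3 TEneg, 5 TEpos and 2 BEneg cells, and the list of red cell and platelet genes by 0 TEneg, 0 TEpos and 1 BEneg cells.

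Basement membrane genes were higher in TEneg than in the other populations. The basement membrane is the sheet of collagen IV, laminins, nidogen and perlecan that lies under epithelium and around vessels. The list was carried by 54 of 68 TEneg cells (79.4%) and made up 1.04 ± 0.249% of TEneg sums, against 0.0833 ± 0.0290% of TEpos sums and 0.0741 ± 0.0282% of BEneg sums (SD, n = 4 each; higher in TEneg in 4 of 4 libraries, exact p = 0.13). Sparc and Col4a1, which are also markers by which the gate had been described, gave 944 of the 1303 transcripts of the list in TEneg (72.4%). The other 13 members, a selection made after the data had been seen, made up 0.296 ± 0.0381% of TEneg sums, 0.0365 ± 0.0136% of TEpos sums and 0.0261 ± 0.00899% of BEneg sums (SD, n = 4 each). The full list was carried by 33 of the 34 endothelial carriers and by 22 of the 26 contractile carriers.

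In the fit over all genes, TEneg sums were compared with TEpos and BEneg sums of the same libraries, and a gene was called where its adjusted p was under 0.05. Of 485 genes tested, 55 differed between TEneg and TEpos (11.3%), with 39 higher (8.04%) and 16 lower (3.3%) in TEneg. The 3 basement membrane genes that passed the filter and all 5 of Sparc, Col4a1, Igfbp3, Vim and Acta2 were among those higher in TEneg. The 3 basement membrane genes were Sparc, Col4a1 and Col4a2, of 15 in the list. Col4a1 and Col4a2 were near 0 in TEpos and BEneg and passed the filter on low counts through TEneg, so their calls say nothing of the list as a whole. The median log2 fold change of all genes tested was 0.03. The 5 markers were named with these results known, so their calls are no independent support. In sums over cells, fewer cells of a type and less RNA per cell cannot be told apart.

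Sparc, a matrix protein that binds collagen, stood at 36.96, 60.7, 30.1 and 54.3 per 10000 in TEneg libraries 1 to 4, against 2.36, 5.65, 3.34 and 2.56 in TEpos. The groups did not overlap, and the log2 fold change was 3.85 ± 0.20 (SE; edgeR adjusted p = 4.91e-17). Sparc was found in 61 of 68 TEneg cells, against 32 of 71 TEpos cells. Col4a1, a chain of collagen IV, stood at 20.01, 39.2, 26.7 and 32.7 per 10000 in TEneg, against 1.18, 0.977, 2.66 and 0 in TEpos (log2 fold change 4.80 ± 0.34 SE, adjusted p = 1.68e-13). Col4a2, the chain that pairs with it, stood at 8.13, 12.96, 11.1 and 14.1 per 10000 in TEneg, against 0.336, 0.697, 0.997 and 0.365 in TEpos (4.37 ± 0.39 SE, adjusted p = 9.24e-11). In both collagen genes every TEneg library lay above every TEpos library. Of the untested members, Hspg2 (perlecan) gave 53 transcripts in TEneg, against 8 in TEpos, Lamb1 49 against 16, Lamc1 43 against 10 and Nid1 29 against 1.

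Col4a1 and Col4a2 are read in opposite directions from 1 stretch of mouse chromosome 8, so the windows around their starts are shown as the pair of genes that moved together in this gate. The windows hold 250 bases before and 50 after each start on GRCm38.p6, from RefSeq, each written 5' to 3' on the strand of its gene. The starts lie 21 bases apart, at 11312826 for Col4a1 on the minus strand and 11312805 for Col4a2 on the plus strand. Capitals mark the 78 bases that both windows hold, as reverse complements of each other (chr8:11312777-11312854). The Col4a1 window is chr8:11312777-11313076 and the Col4a2 window chr8:11312555-11312854.
Col4a1: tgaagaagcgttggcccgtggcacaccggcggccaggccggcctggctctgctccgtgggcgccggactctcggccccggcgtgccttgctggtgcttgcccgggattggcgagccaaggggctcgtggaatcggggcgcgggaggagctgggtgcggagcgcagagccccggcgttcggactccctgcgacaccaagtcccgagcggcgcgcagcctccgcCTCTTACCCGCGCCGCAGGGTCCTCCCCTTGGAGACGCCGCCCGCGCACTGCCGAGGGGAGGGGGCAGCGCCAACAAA
Col4a2: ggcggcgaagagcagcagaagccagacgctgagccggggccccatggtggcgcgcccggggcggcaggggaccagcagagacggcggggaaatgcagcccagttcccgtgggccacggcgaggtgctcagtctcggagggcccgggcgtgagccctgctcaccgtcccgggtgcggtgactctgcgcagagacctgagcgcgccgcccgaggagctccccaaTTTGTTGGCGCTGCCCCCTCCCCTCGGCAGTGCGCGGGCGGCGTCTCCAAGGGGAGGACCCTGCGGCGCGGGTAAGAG
The letters CCAAT, or ATTGG on the other strand, occur 1 time in each window and 0 times in the shared bases, and 37.4% of 32851 promoter windows of this length hold them. The letters GGGCGG, or CCGCCC on the other strand, occur 1 time in the Col4a1 window, 3 times in the Col4a2 window and 1 time in the shared bases, and 35.7% of windows hold them. These are matches of letters and not binding sites.

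Igfbp3, a secreted protein that binds insulin-like growth factors, stood at 21.1, 8.77, 22.4 and 17.8 per 10000 in TEneg, against 0.672, 1.68, 0.997 and 0 in TEpos (log2 fold change 4.17 ± 0.38 SE, adjusted p = 9.24e-11). Vim, the intermediate filament of mesenchymal, endothelial and white blood cells, stood at 7.59, 15.9, 12.2 and 22.9 per 10000 in TEneg, against 1.68, 2.10, 3.0 and 1.83 in TEpos (2.89 ± 0.30 SE, adjusted p = 1.74e-09). Neither gene overlapped between the gates. Acta2 was the least even, with 34.6, 5.87, 10.2 and 48.6 per 10000 in TEneg, against 0.672, 1.83, 0.998 and 2.19 in TEpos (3.98 ± 0.36 SE, adjusted p = 9.24e-11). Libraries 1 and 4 were the high ones for Acta2 in TEneg, and they were also the libraries with the larger shares of contractile carriers.

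**Figure D4:**
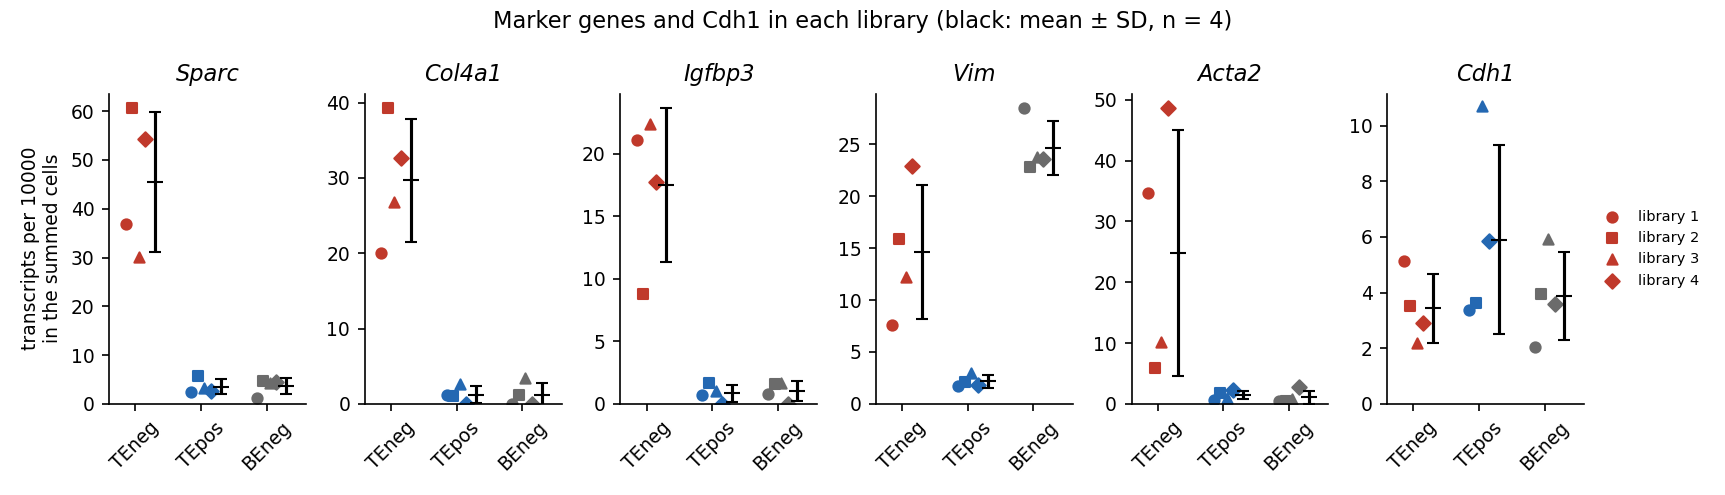
Transcripts per 10000 in the summed cells of each library for 5 marker genes and Cdh1 (coloured symbols: libraries 1 to 4; black: mean ± SD, n = 4). The 5 markers lie higher in every TEneg library than in any TEpos library, Vim lies higher in BEneg, and Cdh1 overlaps between the 3 populations.

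The 5 markers were not spread alike over the TEneg cells. In the summed cells with the endothelial list alone, with the contractile list alone, with both and with neither, Sparc stood at 75.97, 32.3, 47.4 and 23.96 per 10000 in that order. Col4a1 stood at 58.3, 24.1, 21.6 and 5.28, Igfbp3 at 34.8, 12.5, 6.46 and 1.76, and Vim at 26.8, 7.07, 12.7 and 3.08. These 4 genes were thus highest in the cells with the endothelial list alone and lowest in the cells with neither list, except that in library 4 Sparc was higher in cells with both lists (71.6) than with the endothelial list alone (65.3). Acta2, which belongs to the contractile list and so helped to form the groups, stood at 0.268, 61.7, 20.1 and 2.20. In the cells with the endothelial list alone it was 1 transcript in 23 cells. The luminal gene Csn3, by contrast, stood at 64.3, 42.8, 62.3 and 66.9, and Cdh1 at 3.75, 4.15, 4.07 and 2.64. The groups were formed from the same cells, contain different numbers of cells from each library and differ in depth, so their levels are given with no test.

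**Figure D5:**
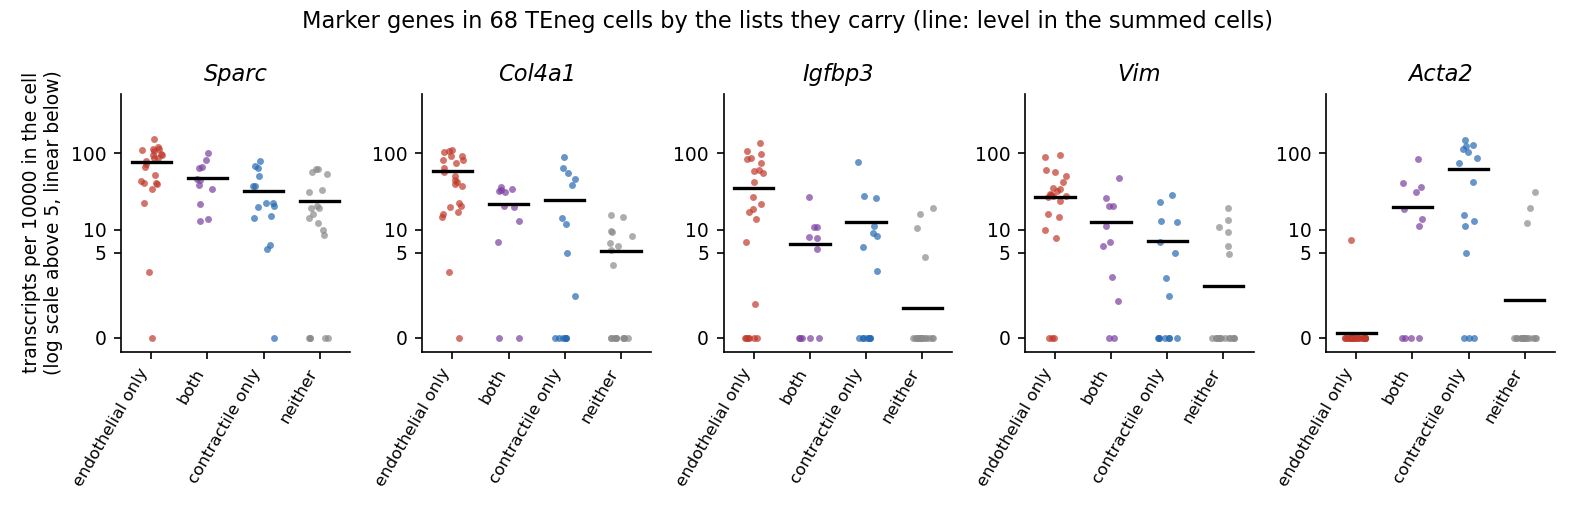
Transcripts per 10000 of 5 marker genes in each of 68 TEneg cells (points), grouped by whether the cell carried the endothelial list, both lists, the contractile list or neither (line: level in the summed cells of the group; vertical axis linear to 5 and logarithmic above). Sparc, Col4a1, Igfbp3 and Vim are highest in cells with the endothelial list alone, and Acta2 is highest in cells with the contractile list alone.

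Transcription factors of the EMT made up 0.0244 ± 0.00785% of TEneg sums, 0.00313 ± 0.00220% of TEpos sums and 0.0254 ± 0.0214% of BEneg sums (SD, n = 4 each). TEneg was above TEpos in 4 of 4 libraries (exact p = 0.13) and above BEneg in 2 of 4 (exact p = 0.875). Snai2 and Zeb1 gave 11 transcripts each in TEneg, in 9 and 7 cells, and none in TEpos. Zeb1 was found in 6 cells with the endothelial list alone and 1 with both lists, and in none of the 15 cells with the contractile list alone or the 19 with neither. Snai2 was found in 4 cells with the contractile list alone, 2 with the endothelial list alone, 2 with both and 1 with neither. These cells are too few to compare the groups. Snai1, Zeb2 and Twist1 gave 3, 2 and 1 transcripts in TEneg, against 4, 1 and 1 in TEpos. No cell of either gate carried the list, and none of its genes passed the filter on low counts. Cdh2, the cadherin of mesenchymal cells, gave 4 transcripts in TEneg.

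Proliferation genes did not separate the gates. The list made up 0.309 ± 0.117% of TEneg sums and 0.265 ± 0.0543% of TEpos sums (SD, n = 4 each; exact p = 0.375). Mki67 gave 15 transcripts in 12 TEneg cells and 15 in 12 TEpos cells. The cell with the broadest set was the well numbered 12 of library 3, with 40 proliferation transcripts from 10 genes, among them Cdk1, Top2a, Ube2c and Ccnb1. It also carried the endothelial, contractile, stromal, leukocyte and macrophage lists, with 13, 6, 11, 6 and 11 transcripts.

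Beside the markers, the genes that rose in TEneg relative to TEpos included Apoe, an apolipoprotein of macrophages and other cells, at 12.5, 13.7, 6.06 and 23.1 per 10000 in TEneg, against 1.68, 5.27, 2.66 and 4.39 in TEpos (log2 fold change 2.17 ± 0.28 SE, adjusted p = 3.46e-07). Within TEneg, Apoe was higher in cells with the contractile list alone (17.1) or both lists (19.8) than in cells with the endothelial list alone (6.44). Msn, the actin-membrane linker moesin, rose by 1.94 ± 0.36 (SE; adjusted p = 0.000183). Fam101b rose by 2.79 ± 0.37, Sparcl1 by 2.07 ± 0.30, Rn45s (ribosomal RNA precursor) by 1.62 ± 0.23 and Kcnq1ot1 (a long noncoding RNA) by 1.26 ± 0.22 as log2 fold changes (SE; adjusted p = 9.95e-05 or less). Cald1, an actin-binding contractile gene, rose by 1.16 ± 0.35 (adjusted p = 0.0256), and it was not called without library 3 (adjusted p = 0.0636) or library 4 (adjusted p = 0.118), nor with the large well included (adjusted p = 0.117).

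Several luminal genes were lower in TEneg. Of the 20 luminal genes in the data, 9 passed the filter on low counts and were tested between the gates. Of these 9, 6 were called lower in TEneg, against 3.3% of all 485 genes tested. The median log2 fold change of the 9 was -0.82, against 0.03 for all genes tested. Sparser members could pass the filter through TEpos, so this count is no result about the list as a whole. Wfdc18 stood at 62.96, 55.7, 62.2 and 23.6 per 10000 in TEneg, against 216, 89.6, 118 and 120 in TEpos (log2 fold change -1.22 ± 0.22 SE, adjusted p = 9.95e-05). Csn3 stood at 56.2, 56.98, 55.2 and 72.9 in TEneg, against 148, 111, 106 and 178 in TEpos (-0.98 ± 0.20 SE, adjusted p = 0.000503). Epcam, an epithelial adhesion molecule, stood at 7.02, 6.20, 5.51 and 5.26 in TEneg, against 11.7, 12.7, 20.2 and 15.8 in TEpos (-1.04 ± 0.25 SE, adjusted p = 0.00286). None of these 3 genes overlapped between the gates. Lcn2 fell by 0.72 ± 0.17, Krt18 by 0.82 ± 0.28 and Trf by 0.48 ± 0.16 as log2 fold changes (SE; adjusted p = 0.00258, 0.0474 and 0.0477). With the large well included, 6.33% of 490 genes were called and 1.63% were lower in TEneg, and Lcn2, Epcam, Krt18 and Trf were no longer called (adjusted p = 0.16, 0.0947, 0.102 and 0.277). With at least 1000 transcripts per cell, 7.01% of 371 genes were called. Krt18 and Trf were also lost without library 1 (adjusted p = 0.307 and 0.219) and without library 3 (adjusted p = 0.102 and 0.0554), Krt18 without library 4 (adjusted p = 0.139) and Trf without library 2 (adjusted p = 0.0878).

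Other genes lower in TEneg included Phlda1, Fos, Fosb and Zfp36. Phlda1, induced by growth factors, stood at 17.9, 11.2, 11.6 and 11.1 per 10000 in TEneg, against 23.7, 27.9, 26.4 and 27.7 in TEpos (log2 fold change -0.82 ± 0.19 SE, adjusted p = 0.00231). Fos, a part of the AP-1 transcription factor, fell by 0.81 ± 0.21, Fosb by 1.41 ± 0.39 and Zfp36, which speeds the decay of messenger RNA, by 0.87 ± 0.24 as log2 fold changes (SE; adjusted p = 0.00713, 0.0111 and 0.0111). None of these 4 was called without library 2 (adjusted p = 0.053, 0.053, 0.0898 and 0.26 for Phlda1, Fos, Fosb and Zfp36), and Fosb was also lost without library 1 (0.178) or library 4 (0.0977). Without the library block Fos, Fosb and Zfp36 were not called (adjusted p = 0.18, 0.0531 and 0.0616). Clic6, a chloride channel gene, fell by 1.79 ± 0.36 (SE; adjusted p = 0.000454).

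Fewer genes were called when the carrying cells were left out. When the cells that carried the endothelial or the contractile list were left out of both gates, an alternative chosen after the data had been seen, 1, 8, 6 and 4 TEneg cells remained, and library 1 gave no TEneg sum because fewer than 3 cells were left. Of 293 genes then tested, 10 differed (3.41%), with 4 higher (1.37%) and 6 lower (2.05%) in TEneg. Sparc was among those higher, at 3.02 ± 0.49 as log2 fold changes (SE; adjusted p = 9.64e-08 by edgeR), as were Sparcl1 at 2.76 ± 0.59, Rn45s at 2.17 ± 0.30 and Ahdc1 at 1.67 ± 0.47 (adjusted p = 0.000244, 2.01e-10 and 0.0131). Sparcl1 belongs to the endothelial list, and the 19 TEneg cells with neither list still held 26 transcripts of it in 8 cells. Rn45s was uneven over the same 19 cells, with a median of 21.62 and a maximum of 418.83 per 10000 in a cell. In their sums it stood at 73.98, 10.77 and 47.88 per 10000 in libraries 2 to 4. The library 3 value lay below the 16.2 of the main TEpos sum of that library. Whether single wells carried the rise of Rn45s was not tested. Fos, Phlda1 and Zfp36 were lower, with log2 fold changes of -1.31 ± 0.35, -1.42 ± 0.34 and -1.59 ± 0.45. The largest falls were in Car6 (-4.37 ± 0.57), Scgb2b27 (-4.28 ± 0.71) and Serf2 (-2.46 ± 0.69), with edgeR adjusted p = 2.48e-11, 1.72e-07 and 0.0131. Car6, Scgb2b27 and Serf2 were not among the genes called in the main result. The TEneg sums in this fit held only 14587, 4653 and 2742 transcripts in libraries 2 to 4. A gene near 0 in them could pass the filter on low counts through TEpos. The direction of these falls is therefore no independent result. Col4a1, Col4a2, Igfbp3, Vim and Acta2 did not pass the filter on low counts in these fewer cells and were not tested there. Csn3 and Wfdc18 kept negative values, -0.62 and -1.004, but were not called (adjusted p = 0.543 and 0.128). With the carriers of any of 8 cell type lists left out, 1, 4, 4 and 3 TEneg cells remained, 5 of 117 genes were called (4.27%), and these were Rn45s, Igfbp5 and Ftl1, higher in TEneg, and Fos and Phlda1, lower (1.71%).

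Compared with BEneg, the other Ecad-negative sort, TEneg was richer in luminal and matrix genes and poor in leukocyte genes. Of the same 485 genes, 193 differed (39.8%), with 78 higher (16.1%) and 115 lower (23.7%) in TEneg. With every cell given equal weight, the split was 153 higher and 107 lower, with the median of all genes shifted to 0.35 on the log2 scale. Of the luminal genes, 8 of the 9 tested were higher in TEneg. Krt8, Krt18 and Cldn3 were low in BEneg (means of 1.46, 1.27 and 0.623 per 10000) and could pass the filter through the tumour gates. Their count is therefore no result about the list. The 11 leukocyte, 3 macrophage and 6 neutrophil genes tested were all lower in TEneg, but most passed the filter on low counts through BEneg, where they are high, so this count was fixed by the filter and is no result about the lists. Tyrobp, an adaptor of myeloid receptors, stood at 1.62, 0.824, 2.75 and 1.75 per 10000 in TEneg, against 53.7, 44.1, 31.4 and 34.2 in BEneg (log2 fold change -5.01 ± 0.29 SE, edgeR adjusted p = 1.63e-16). Trf stood at 30.9, 41.4, 40.9 and 50.4 per 10000 in TEneg, against 7.78, 15.95, 7.60 and 16.2 in BEneg (1.57 ± 0.21 SE, adjusted p = 1.23e-07). Igfbp5, another binding protein of insulin-like growth factors, stood at 55.2, 51.5, 54.6 and 116 per 10000 in TEneg, against 5.79, 18.96, 5.92 and 18.2 in BEneg (2.23 ± 0.23 SE, adjusted p = 6.55e-10). None of these 3 genes overlapped between the groups.

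Sparc, Col4a1, Igfbp3 and Acta2 were also higher in TEneg than in BEneg, by 3.55 ± 0.25, 4.69 ± 0.45, 3.67 ± 0.48 and 4.44 ± 0.50 as log2 fold changes (SE; adjusted p = 6.84e-08 or less). Vim was the exception and was lower in TEneg, at 7.59, 15.9, 12.2 and 22.9 per 10000, against 28.6, 22.8, 23.8 and 23.6 in BEneg (log2 fold change -1.06 ± 0.24 SE, adjusted p = 0.000393), with groups that overlapped by a small margin. With every cell given equal weight the difference was not called (-0.61, limma adjusted p = 0.0584). Hmgb2, a chromatin protein of dividing and of white blood cells, was lower in TEneg by 2.25 ± 0.35 and Stmn1, a microtubule regulator, higher by 3.14 ± 0.80 (SE; adjusted p = 1.72e-06 and 0.00153). Stmn1 had only 2 transcripts in BEneg and could pass the filter on low counts through the tumour gates, so its direction is no independent result. The comparisons with TEpos and with BEneg share the TEneg sums.

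The large well, numbered 25 in library 2, held 61227 transcripts from 7466 genes, whereas the next largest TEneg well held 4974. It made up 55.7% of the TEneg transcripts of its library and 33.5% of those of all TEneg cells. Its highest gene used 254 molecular barcodes, close to all that exist, so its most abundant genes are estimated with little precision. It also carried the contractile list with 79 transcripts from 10 genes and the endothelial list with 53 from 7 genes, 43 of them Sparcl1. Its contractile share of 0.129% was near the TEneg median of 0.133% and above 57 of 71 TEpos cells, and its endothelial share was 0.0866%, against a TEneg median of 0.280%. Luminal genes made up 6.05% of it, above all 68 other TEneg cells and above 47 of 71 TEpos cells. Lcn2, Csn3, Wfdc18, Trf and Igfbp5 were its leading genes, with 1242, 887, 596, 495 and 482 transcripts.

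The markers were lower in the large well than in the rest of the gate. Sparc stood at 5.58 per 10000 in the large well, against a mean of 45.6 in the other 68 TEneg cells, Vim at 0.992 against 15.3, Col4a1 at 5.77 against 27.03, Acta2 at 3.401 against 17.3 and Igfbp3 at 1.67 against 17.7. The mean in TEpos cells was 3.76 for Sparc, 2.0 for Col4a1, 1.61 for Acta2 and 0.860 for Igfbp3, all below the large well, and 1.95 for Vim, above it. The basement membrane share of the large well, 0.201%, was above 66 of 71 TEpos cells. Cdh1 stood at 8.68 in the large well, against 3.43 in the other TEneg cells and 5.60 in TEpos cells, and Epcam at 16.1, against 6.11 and 15.7. Krt5 was present with 17.6 transcripts (2.87 per 10000), against a mean of 1.57 in the other TEneg cells and 0.0388 in TEpos cells. Relative to the other TEneg cells, its most raised genes included Ptx3 (13.4 times), the globin gene Beta-s (11.9 times, 31.9 transcripts), Cck, Clca2, Ltf and C4b (5.51 to 6.94 times). Across 1792 genes its levels had a Spearman correlation of 0.694 with the mean of TEpos cells, 0.634 with that of the other TEneg cells and 0.286 with that of BEneg cells, as a description over genes, which are not independent. It is 1 well, so no test was made.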

How the data were processed

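Single-cell CEL-seq data of 7 libraries were used, 4 of experiment ii for all results and 3 of experiment i to count cells. What was deposited are the authors' estimated counts for each gene and well, without normalization. Reads were mapped with BWA 0.6.2-r126 to mm10, per the submitters' processing notes, and how reads were counted was not given in the sources used here. Each value was 256 times ln(256/(256 − k)) for a whole number k (largest distance 3.13e-13), where 256 is the number of molecular barcodes. No rule for reads shared by near copies or by strand is given, so Lyz1, Lyz2 and overlapping genes are uncertain. Spike-ins (73 rows) were left out, which left 11753 gene rows.

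Wells of at least 500 transcripts were kept. Each well was sorted to hold 1 cell, so no doublet caller was run. List counts used values rounded per gene and well. Sums per library and population (at least 3 cells) used the deposited values and were then rounded. A single edgeR 4.0.16 model of TEneg, TEpos and BEneg sums was used (quasi-likelihood, TMM, filterByExpr, Benjamini-Hochberg) under R 4.3.3, without the TEneg well over 20000 transcripts and with library as a block, since by the barcode table each library holds wells of these 3 populations. Within a library, residuals correlated at 0.0569 to 0.301 between TEneg and TEpos and at 0.056 to 0.27 between TEneg and BEneg. The SE is the absolute log2 fold change over the square root of F. No TEneg sum was a copy of another (chi-square per degree of freedom 1.86 to 4.25). Shares of cells carry exact Clopper-Pearson 95% intervals for counting error, and differences over the 4 libraries an exact two-sided sign-flip test. Thinning drew 500 transcripts from each cell 100 times. The fit was tested on simulated data.

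The 16 gene lists, the cells and the tests were chosen with earlier results of these data known. Named genes are the 5 markers and Cdh1, list members that were called, up to 12 further genes in each direction by adjusted p, the 4 most abundant members of each list, the 8 genes with the largest ratio in carriers of 4 lists (at least 20 transcripts, in at least 40% of carriers), and the 10 largest genes by share and by ratio (at least 20 transcripts) in the large well, of which not all are printed. Other genes named from the lists were chosen after their values were seen. Old symbols were matched through RefSeq synonyms. Alternatives were other scaling, DESeq2 1.42.0, limma 3.58.1 on cells of equal weight, no filter, no block, leaving out libraries or carriers, the large well included and at least 1000 transcripts per cell.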

Additional observations from a re-analysis of the deposited data

Results flagged for a closer look

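Among 73 sets of 4 library values, 5 had 1 library far from the other 3, by a gap over the range above Dixon's 95% critical value, and chance gives about 1 in 20. In TEneg, Csn3 stood at 72.9 per 10000 in library 4, against 55.2 to 56.98 in the others (gap 0.898 of the range). Sparcl1 stood at 28.3 in library 4, against 8.70 to 11.9 (0.838). Rn45s stood at 53.7 in library 2, against 20.5 to 24.8 (0.872). Phlda1 stood at 17.9 in library 1, against 11.1 to 11.6 (0.933). In TEpos, Msn stood at 0.365 in library 4, against 1.81 to 2.02 (0.875).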

How the results depend on the processing

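Between TEneg and TEpos, 55 genes were called. The count was 36 with the DESeq2 test, 136 of 11188 without a filter, 31 of 490 with the large well included, 26 of 371 with at least 1000 transcripts per cell, 34 with cells of equal weight in limma, 5 without carriers of any of 8 lists and 10 without endothelial or contractile carriers, which was added after the data were seen. It was 39 with no replicate block, 60 with DESeq2 size factors and 38 to 50 with 1 library left out. Of 28 named genes called, 12 were called under every alternative that tested them. Between TEneg and BEneg, 193 genes were called, 450 without a filter, 99 with at least 1000 transcripts, 180 with no replicate block and 159 to 214 with 1 library left out, and 40 of 43 named genes were called throughout. With cells of equal weight, 153 genes were higher and 107 lower in TEneg, with a median log2 fold change of 0.35 over all genes, against 78 and 115 in the main result. Without a filter they were 183 and 267, with a median of 0.48.

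Cdh1 changed sign: against BEneg it was 0.019 without a filter, -0.61 to 0.10 with 1 library left out, 0.25 with the large well and 0.39 with at least 1000 transcripts, and against TEpos -0.81 to 0.13 with 1 library left out and 0.0090 with the large well. Thinning left 13.71 contractile, 1.89 basal keratin, 21.04 endothelial, 4.38 stromal and 2.15 leukocyte carriers. With 1 library left out, contractile carriers were 13 to 24, basal keratin 7 to 12 and endothelial 21 to 27. At least 5 transcripts gave 15 stromal and 3 leukocyte carriers, and at least 2 gave 25 leukocyte carriers. The large well raised the luminal share to 2.97%. The causes were not tested.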
